A study of Mus musculus with 6 samples.

Results

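The 27 genes described here cover cholesterol synthesis and its control in mouse dorsal root ganglia. They were taken by gene symbol from the 54532 genes of the count table, and all 27 are in it. The list holds 19 enzymes, from the first condensation of acetyl-CoA units to the last reduction steps, and 8 genes of sterol sensing, transport and receptor turnover. Bulk RNA-seq libraries came from dorsal root ganglia of heterozygous Ash1l+/- mice (3 libraries) and of their wild-type littermates (WT, 3 libraries). Ash1l encodes a histone methyltransferase, and the study asked how loss of a single copy alters gene expression in the sensory ganglion. No treatment separates the groups. Age, sex, strain and the structure of the Ash1l allele are not stated in the material used here. Nothing ties a library to its own animal, and the p-values below therefore speak only of variation among libraries, some of which may be technical.

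Cholesterol is built from acetyl-CoA through mevalonate to isoprenoid diphosphates, then through squalene and lanosterol to cholesterol, with side branches to prenylated proteins, dolichol and ubiquinone. When sterol in the endoplasmic reticulum is low, Scap escorts the SREBP transcription factors, products of Srebf1 and Srebf2, to the Golgi, where they are cleaved and freed to activate these genes, and Insig proteins hold the complex back when sterol is plentiful. In peripheral nerve, Schwann cells make much of their own cholesterol for myelin.

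Total counts ran from 17209294 to 20545722 per library. WT replicate 2 stood apart from the other 5 libraries: its correlations with them on log2 counts scaled to library size were 0.846 to 0.877, against at least 0.981 among the other 5, and its TMM scaling factor was 0.759, against 1.05 to 1.07 in the others. Its level was over 2-fold above the mean of WT replicates 1 and 3 in 7 of the 27 sterol genes and under 0.5 of that mean in 8. The main counts are therefore given with all 6 libraries and without WT replicate 2. Unless stated otherwise, a gene's fold change and adjusted p come from the comparison without WT replicate 2. The sign differed between both comparisons for 4 of the 27 genes: Fdps, Lss, Msmo1 and Srebf2. The Ash1l gene itself had 66.5, 66.5 and 68.9 CPM (counts scaled to a fixed library size, after TMM adjustment) in the Ash1l+/- libraries, against 60.9, 30.9 and 54.4 CPM in the WT libraries, a log2 fold change of 0.46 with all libraries and 0.22 without WT replicate 2, neither of which passed the test (edgeR adjusted p = 0.396 and 0.0593). With the allele not described, reads of the whole gene do not check the labels.

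The sequences just upstream of 5 of the genes are shown because SREBP is known to act at such promoters together with NF-Y and Sp1, and because these genes represent the different behaviours described below: Hmgcs1 (not called), Acat2 and Mvk (lower in Ash1l+/-), Insig1 (called lower with GC and length trends removed) and Abca1 (higher). Capitals mark matches, on either strand, to CCAAT (reverse complement ATTGG, the NF-Y element), GGGCGG (reverse complement CCGCCC, the Sp1 element), CACGTG (an E-box) and TCACCCCAC (a sterol response element sequence). The stretches come from RefSeq promoter windows on GRCm38.p6, kept to bases outside annotated exons and written on the gene's own strand. They lie at chr13:119690101-119690350 (plus strand, Hmgcs1), chr17:12960748-12960975 (minus strand, Acat2), chr5:114444061-114444268 (plus strand, Mvk), chr5:28071162-28071362 (plus strand, Insig1) and chr4:53159896-53160145 (minus strand, Abca1).
Hmgcs1: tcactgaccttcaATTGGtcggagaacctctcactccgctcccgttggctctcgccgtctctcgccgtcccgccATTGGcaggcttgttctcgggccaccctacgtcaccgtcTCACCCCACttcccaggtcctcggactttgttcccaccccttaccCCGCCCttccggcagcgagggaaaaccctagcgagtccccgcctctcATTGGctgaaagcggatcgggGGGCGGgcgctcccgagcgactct
Acat2: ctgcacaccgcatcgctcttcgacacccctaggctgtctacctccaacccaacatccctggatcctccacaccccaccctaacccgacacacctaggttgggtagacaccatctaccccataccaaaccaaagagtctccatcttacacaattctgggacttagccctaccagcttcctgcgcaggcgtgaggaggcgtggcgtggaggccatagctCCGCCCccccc
Mvk: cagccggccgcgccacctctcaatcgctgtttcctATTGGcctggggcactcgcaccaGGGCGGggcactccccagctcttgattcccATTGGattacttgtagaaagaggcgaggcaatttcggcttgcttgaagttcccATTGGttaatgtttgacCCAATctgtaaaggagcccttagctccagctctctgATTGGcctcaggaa
Insig1: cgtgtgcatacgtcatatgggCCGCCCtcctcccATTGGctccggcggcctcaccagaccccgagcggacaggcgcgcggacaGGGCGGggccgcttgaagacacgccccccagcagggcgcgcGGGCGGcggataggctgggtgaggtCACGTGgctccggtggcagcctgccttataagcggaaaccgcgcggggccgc
Abca1: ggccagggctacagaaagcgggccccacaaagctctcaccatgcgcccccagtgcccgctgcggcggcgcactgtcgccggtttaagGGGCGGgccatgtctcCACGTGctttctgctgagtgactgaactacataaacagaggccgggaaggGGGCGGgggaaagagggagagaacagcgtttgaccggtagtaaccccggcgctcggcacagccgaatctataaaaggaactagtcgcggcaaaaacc

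Windows from 250 bases before to 50 bases after a start were held for 23 of the 27 genes, 31 windows in all because some genes have several starts. CCAAT was found in 21 of these 31 windows (67.7%), against 37.4% of all 32851 mouse windows, and GGGCGG in 25 (80.6%), against 35.7%. CACGTG was found in 7 (22.6%, in Abca1, Dhcr7, Hsd17b7, Insig1, Sc5d and Scap), against 7.15%. Windows of the same gene can overlap: the CACGTG of Scap is a single site that was counted in each of its windows. The Mvk stretch holds 5 CCAAT matches. The full TCACCCCAC was found in 1 window (3.23%), that of Hmgcs1, 137 bases before the start, against 0.551% of all windows, and allowing any base at the fifth place (TCACNCCAC) added no other sterol gene (1.24% of all windows). These are letter matches in a short window, and a missing match says nothing of binding elsewhere. Genes with CCAAT and GGGCGG matches stood among those lower in Ash1l+/- (Mvk, Mvd), those higher (Sc5d) and those not called (Hmgcs1, Cyp51) alike.

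With WT replicate 2 left out, 11 of the 27 sterol genes passed the test (edgeR quasi-likelihood test, adjusted p under 0.05 over all genes tested), against 19.8% of all 16395 genes. Of the 27 genes 40.7% were called, a share given beside the background and not tested. DESeq2 on the same libraries called 12, the same 11 and Cyp51, against 17.9% of all genes. Ggps1, Sc5d and Abca1 were higher in Ash1l+/- ganglia (3 genes, against 9.39% of all genes). Acat2, Mvk, Pmvk, Mvd, Tm7sf2, Dhcr7, Srebf1 and Scap were lower (8 genes, against 10.4% of all genes).

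With all 6 libraries, none of the 27 passed the test, and none of the 16032 genes tested did (0%). The unadjusted p was under 0.05 for 4 sterol genes (Mvk, Tm7sf2, Ggps1 and Scap), against 10.6% of all genes. DESeq2 also called none of the 27, against 0.218% of all genes, with 7 at an unadjusted p under 0.05. Limma's voom called none, with 2 at an unadjusted p under 0.05. Down-weighting aberrant libraries (voom with quality weights, chosen after the data were seen) called 12 of the 27, against 26.1% of all genes.

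**Figure D1:**
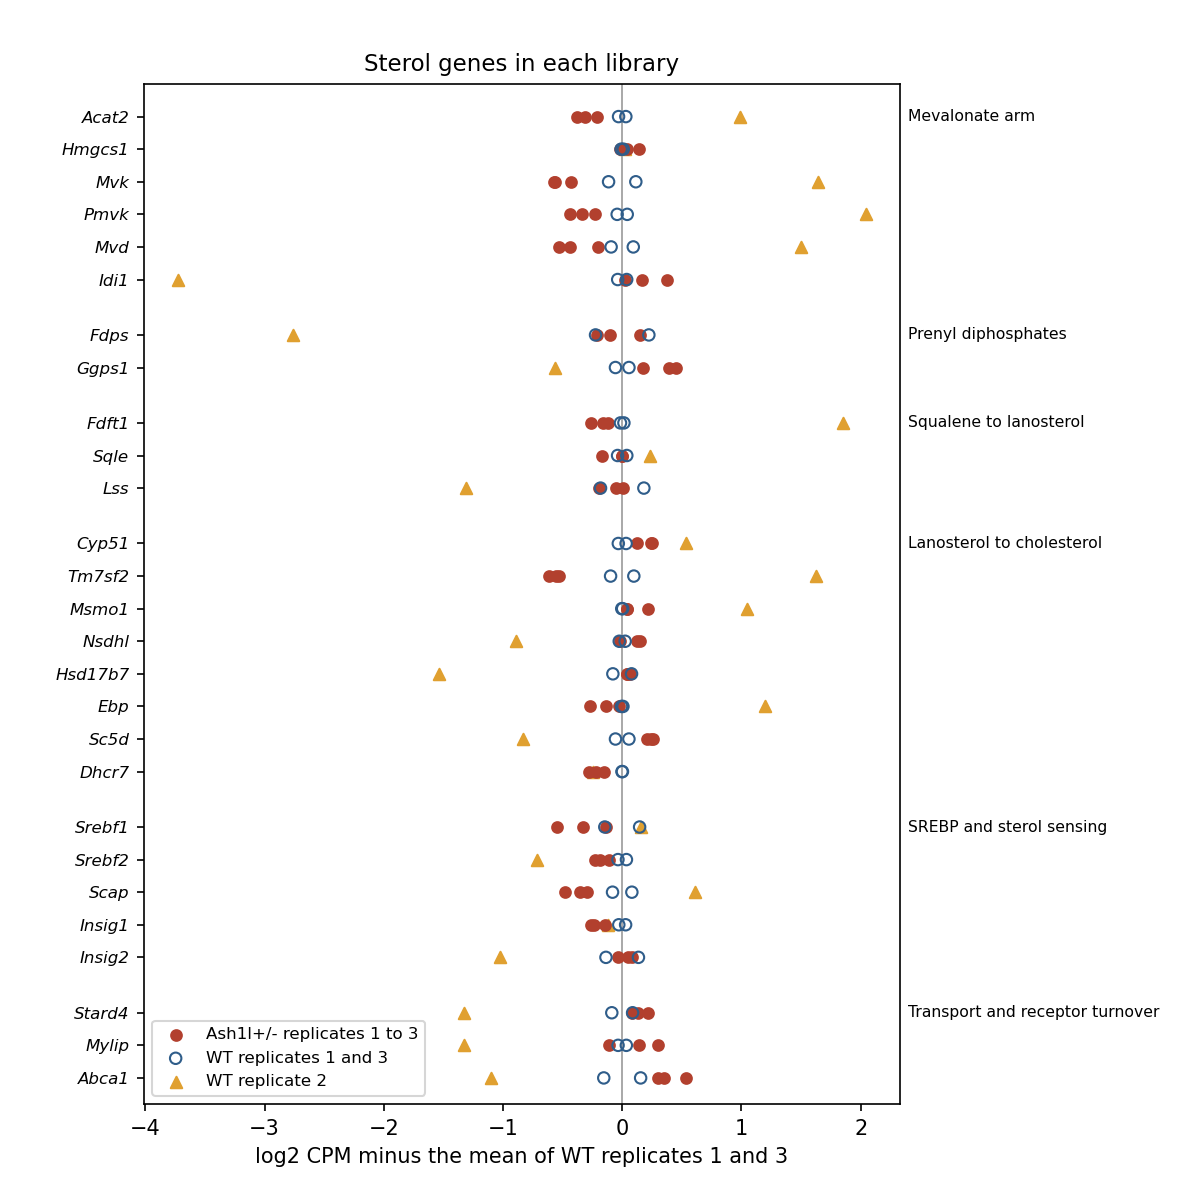
Level of each of the 27 sterol genes in each library, as log2 CPM minus the mean of WT replicates 1 and 3 (horizontal axis), with filled circles for the 3 Ash1l+/- libraries, open circles for WT replicates 1 and 3 and triangles for WT replicate 2. The Ash1l+/- circles lie left of both open circles for Acat2, Mvk, Pmvk, Mvd and Tm7sf2, and the triangle lies far to the right for the same genes.

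Without WT replicate 2, 4 of the 6 mevalonate arm enzymes fell in Ash1l+/- ganglia (Acat2, Mvk, Pmvk and Mvd), against 10.4% of all genes. Hmgcs1 and Idi1 did not pass the test. The median log2 fold change of the 6 was -0.31, against 0.00 over all genes tested. With GC and length trends removed the median of the 6 was -0.08, and 2 of the 4 (Acat2 and Mvk) passed. Across all 6 libraries the median was -0.89, and none passed.

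Mvk, mevalonate kinase (ENSMUSG00000041939, chromosome 5, 114444269 to 114460591, GRCm38), had 49.1, 44.5 and 44.8 CPM in the Ash1l+/- libraries, against 71.6, 206 and 61.1 CPM in WT replicates 1, 2 and 3. Every Ash1l+/- library was below every WT library, and WT replicate 2 was 3.11 times the mean of the other WT libraries. Without WT replicate 2, Mvk had a log2 fold change of -0.52 (SE 0.090, adjusted p = 0.000763), and with it one of -1.29 (adjusted p = 0.385). Acat2, the cytosolic thiolase that joins acetyl-CoA units (ENSMUSG00000023832, chromosome 17, 12942890 to 12960747), had 129.7, 145 and 135 CPM in Ash1l+/- ganglia, against 165, 333 and 172 CPM in WT. The groups did not overlap, and Acat2 had a log2 fold change of -0.30 (SE 0.075, adjusted p = 0.00925) without WT replicate 2 and -0.71 (adjusted p = 0.385) with it.

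Pmvk, phosphomevalonate kinase, acts just after Mvk. It had 68.0, 63.0 and 58.8 CPM in Ash1l+/- libraries, against 81.8, 328 and 77.2 CPM in WT libraries. Its log2 fold change was -0.33 (SE 0.083, adjusted p = 0.00959) without WT replicate 2 and -1.36 (adjusted p = 0.385) with it, that library's level being 4.12 times the mean of the other WT libraries. Mvd, mevalonate diphosphate decarboxylase, had 49.9, 42.4 and 39.7 CPM in Ash1l+/- libraries, against 61.4, 162.5 and 53.9 CPM in WT libraries. Its log2 fold change was -0.39 (SE 0.10, adjusted p = 0.0109) without WT replicate 2 and -1.07 (adjusted p = 0.385) with it. For both genes all Ash1l+/- values lay below all WT values.

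Hmgcs1, the cytosolic HMG-CoA synthase and the most abundant of the 27 per gene length in every library but WT replicate 2, did not pass the test. It had 570.2, 593 and 637 CPM in Ash1l+/- libraries, against 581, 587 and 574 CPM in WT libraries, and the groups overlapped. The fold change was 1.04 (approximate 95% interval 0.943 to 1.15, adjusted p = 0.622). Idi1, the isopentenyl diphosphate isomerase, had 64.4, 82.5 and 71.1 CPM in Ash1l+/- libraries, against 61.8, 4.71 and 65.2 CPM in WT libraries. WT replicate 2 held 63 reads of Idi1, a level 0.0741 times the mean of the other WT libraries, the lowest such ratio among the 27. Idi1 did not pass the test (log2 fold change 0.20, adjusted p = 0.148, without WT replicate 2 and 0.73, adjusted p = 0.605, with it).

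At the branch to prenyl diphosphates, Ggps1 rose and Fdps was barely counted. Ggps1, geranylgeranyl diphosphate synthase, had 60.5, 70.2 and 73.0 CPM in Ash1l+/- libraries, against 51.5, 36.2 and 55.7 CPM in WT libraries, with no overlap. Its log2 fold change was 0.34 (SE 0.090, adjusted p = 0.0115) without WT replicate 2 and 0.51 (adjusted p = 0.385) with it. Fdps, farnesyl diphosphate synthase, which feeds both sterols and prenylation, had 4.03, 5.20 and 4.34 CPM in Ash1l+/- libraries, against 5.48, 0.598 and 3.99 CPM in WT libraries, from 8 to 111 reads. The Fdps level is uncertain, and why it was counted so low was not tested. Of its annotated exonic bases, 26.7% are shared with the same-strand gene Gm43738, which has 0 reads in every library. How reads in shared exons were counted is not stated in the material used here.

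Without WT replicate 2, none of the 3 enzymes from squalene to lanosterol passed edgeR's test, with the unadjusted p under 0.05 for 1 (Fdft1), and DESeq2 called none. Fdft1, squalene synthase, which commits carbon to sterols, had 224, 239 and 246 CPM in Ash1l+/- libraries, against 270.3, 966 and 265 CPM in WT libraries. All Ash1l+/- values were below all WT values, but the log2 fold change of -0.18 missed the threshold (adjusted p = 0.0897), as did the -1.08 with all 6 libraries (adjusted p = 0.385), and 18.3% of its exonic bases overlap the opposite-strand gene Ctsb, which holds 30055 to 38075 reads. Sqle, squalene epoxidase, had 199, 223 and 223 CPM in Ash1l+/- libraries, against 229.5, 262 and 217.5 CPM in WT libraries, a fold change of 0.962 (approximate 95% interval 0.868 to 1.07). Lss, lanosterol synthase, had 37.4, 36.0 and 32.6 CPM in Ash1l+/- libraries, against 42.4, 15.0 and 32.9 CPM in WT libraries, and the groups overlapped.

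From lanosterol to cholesterol, 2 of 8 enzymes fell (against 10.4% of all genes) and 1 rose (against 9.39%) without WT replicate 2. Tm7sf2, a sterol reductase acting on the lanosterol side of this segment, had the largest decrease of the 27 genes in that comparison (ENSMUSG00000024799, chromosome 19, 6062821 to 6077197). It had 49.2, 47.2 and 49.98 CPM in Ash1l+/- libraries, against 77.4, 224 and 67.6 CPM in WT libraries. The Ash1l+/- libraries lay close together and below every WT library, and Tm7sf2 had a log2 fold change of -0.57 (SE 0.084, adjusted p = 0.000217) without WT replicate 2 and -1.33 (adjusted p = 0.385) with it. Its exons share 12.1% of their bases with the same-strand gene Vps51, which was counted at 15 to 53 reads, against 880 to 2997 reads for Tm7sf2. That share is of 4403 annotated exonic bases, while the deposited length of Tm7sf2 is 5593, so the gene as counted may differ. Whether reads of Vps51 were lost or assigned to Tm7sf2 was not tested.

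Sc5d, the sterol desaturase late in the pathway, rose. It had 161.6, 167 and 166 CPM in Ash1l+/- libraries, against 135, 78.7 and 145.5 CPM in WT libraries, and its log2 fold change was 0.24 (SE 0.074, adjusted p = 0.0302) without WT replicate 2 and 0.46 (adjusted p = 0.389) with it. Dhcr7, which makes cholesterol in the last reduction of one route, had 98.5, 94.4 and 103 CPM in Ash1l+/- libraries, against 114.5, 96.5 and 115 CPM in WT libraries. Its log2 fold change of -0.22 (SE 0.075, adjusted p = 0.0480; -0.14 with all 6 libraries) was at the edge of the threshold and was called in 4 of 16 alternative settings. WT replicate 2 lay inside the Ash1l+/- range for this gene.

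The other 5 enzymes of this segment did not pass edgeR's test. Cyp51, the lanosterol demethylase, came closest, with 138, 150.3 and 151 CPM in Ash1l+/- libraries, against 129.9, 184 and 124 CPM in WT libraries (log2 fold change 0.21, adjusted p = 0.0583). DESeq2 called Cyp51 on the same 5 libraries (adjusted p = 0.0391), as did 3 of 16 alternatives in all, and with all 6 libraries its log2 fold change was 0.01. Msmo1 and Nsdhl, which remove the methyl groups of lanosterol, Hsd17b7, a ketosteroid reductase of the same steps, and Ebp, the sterol isomerase, had log2 fold changes of 0.10, 0.09, 0.05 and -0.14 without WT replicate 2, with adjusted p from 0.374 to 0.723. Their values with all 6 libraries were -0.34, 0.33, 0.40 and -0.65, with the opposite sign for Msmo1. The calls of this segment without WT replicate 2 were Tm7sf2 and Dhcr7 lower and Sc5d higher. With GC and length trends removed, only Tm7sf2 among its 8 enzymes was called.

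Among the sensing genes, Scap and Srebf1 fell without WT replicate 2, and Srebf2, Insig1 and Insig2 did not pass. Scap, the sterol-sensing escort, had 64.6, 62.0 and 56.6 CPM in Ash1l+/- libraries, against 83.7, 121 and 74.8 CPM in WT libraries, with no overlap. Its log2 fold change was -0.37 (SE 0.085, adjusted p = 0.00480) without WT replicate 2 and -0.61 (adjusted p = 0.385) with it. Srebf1, whose product is best known for fatty acid genes, had 68.2, 59.8 and 51.3 CPM in Ash1l+/- libraries, against 82.9, 83.5 and 67.7 CPM in WT libraries. The highest Ash1l+/- value was above the lowest WT value, and Srebf1 had a log2 fold change of -0.33 (SE 0.11, adjusted p = 0.0343) without WT replicate 2 and -0.38 (adjusted p = 0.385) with it.

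Srebf2, which encodes the main activator of cholesterol synthesis genes, had 256, 243 and 235.5 CPM in Ash1l+/- libraries, against 283, 169 and 269.5 CPM in WT libraries. Its log2 fold change was -0.17 (adjusted p = 0.105) without WT replicate 2 and 0.03 (adjusted p = 0.948) with it, so its sign depended on that library. Insig1, itself a target of SREBP, had 82.0, 88.8 and 83.4 CPM in Ash1l+/- libraries, against 100.1, 90.5 and 96.2 CPM in WT libraries. The groups did not overlap, and the log2 fold change was -0.21 (adjusted p = 0.0554) without WT replicate 2 and -0.17 (adjusted p = 0.468) with it. Insig2 had 39.2, 42.5 and 41.6 CPM in Ash1l+/- libraries, against 36.5, 19.7 and 44.1 CPM in WT libraries (log2 fold change 0.03, adjusted p = 0.859, without WT replicate 2 and 0.30, adjusted p = 0.565, with it).

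Abca1 was the one transport gene that passed. Abca1 encodes the transporter that loads cholesterol onto apolipoproteins (chromosome 4, 53030787 to 53159895, minus strand). It had 122, 139 and 117 CPM in Ash1l+/- libraries, against 85.8, 44.6 and 106 CPM in WT libraries, with no overlap, and its log2 fold change was 0.39 (SE 0.094, adjusted p = 0.00638) without WT replicate 2 and 0.68 (adjusted p = 0.385) with it. Stard4, a sterol carrier, had a log2 fold change of 0.14 without WT replicate 2 (adjusted p = 0.224) and 0.46 with it (adjusted p = 0.473). Mylip, a ubiquitin ligase for lipoprotein receptors, counted from 60 to 306 reads, had 0.12 (adjusted p = 0.593) and 0.44 (adjusted p = 0.509).

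**Figure D2:**
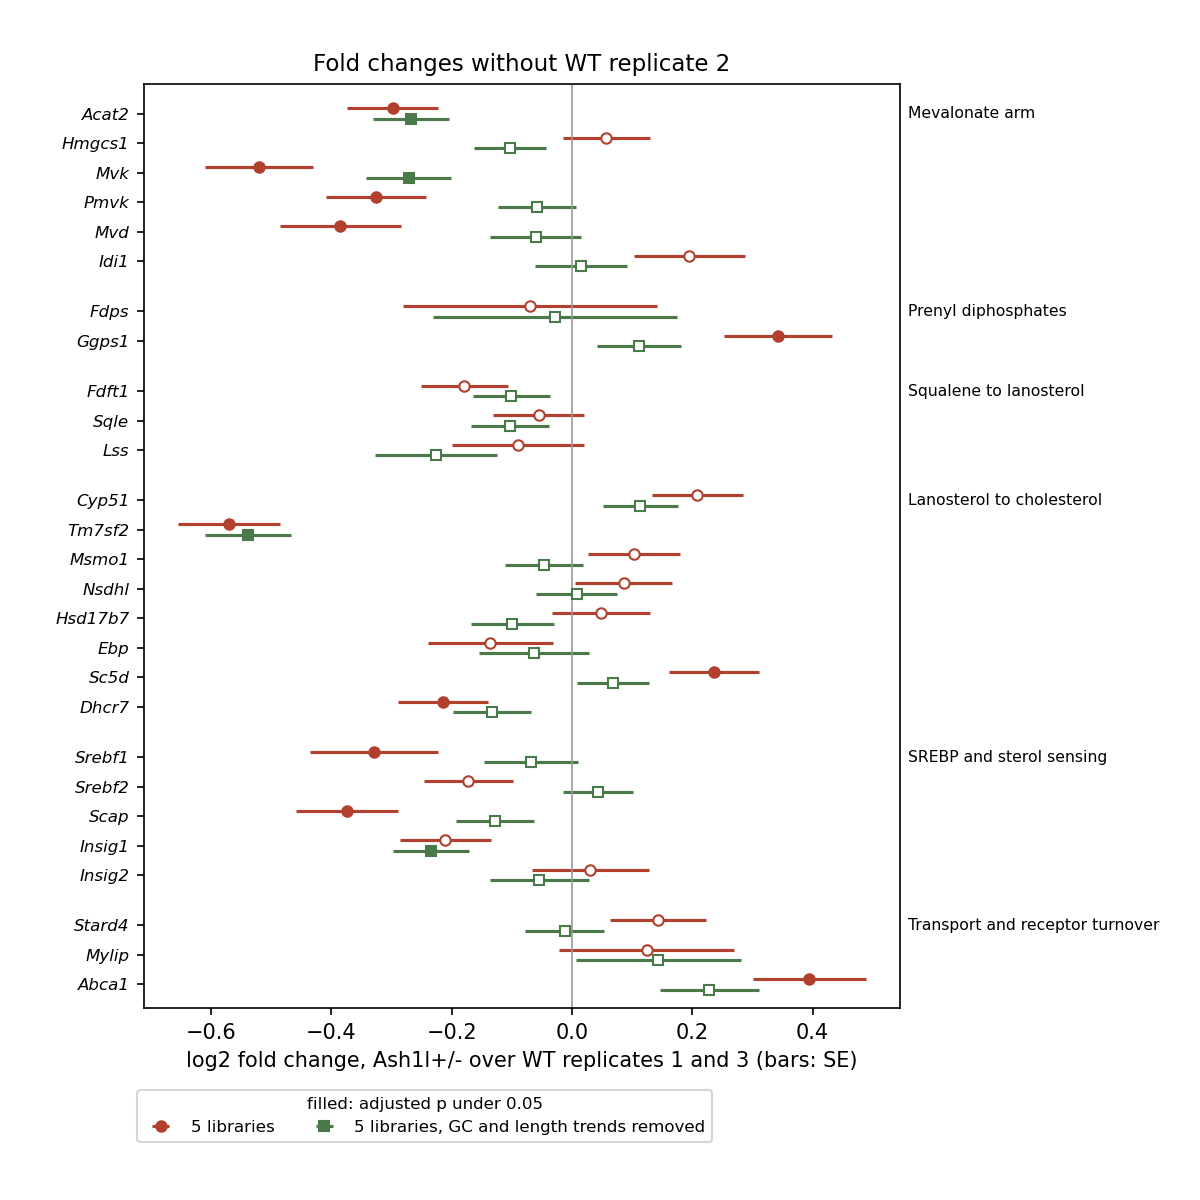
Log2 fold change, Ash1l+/- over WT replicates 1 and 3 (horizontal axis, bars: SE), of each sterol gene from the counts (circles) and after removal of GC and length trends (squares), filled where the adjusted p was under 0.05. Acat2, Mvk and Tm7sf2 are filled in both series, and the squares of Pmvk, Mvd, Srebf1 and Scap lie closer to 0 than their circles.

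With all 6 libraries, Ash1l+/- and WT values did not overlap for 12 of the 27 genes (3 higher, against 19.3% of all genes, and 9 lower, against 19.2%), together against 38.5%. Without WT replicate 2 they did not overlap for 16 (5 higher, against 23.9% of all genes, and 11 lower, against 25.3%), together against 49.2%. The median log2 fold change of the 19 enzymes was -0.07 without WT replicate 2 and -0.14 with all libraries, against 0.00 over all genes in both comparisons, so the list as a whole sat near the middle of the data while its members spread to both sides.

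The direction of a sterol gene went with the GC content of its longest transcript. The 8 genes that fell had GC contents of 49.6% to 59.1% (median 56.6%), the 3 that rose had 40.1% to 47.5% (median 42.9%), and the 16 that were not called had 41.9% to 57.9%. Across the 27 genes the Spearman correlation of GC with the log2 fold change without WT replicate 2 was -0.84, and across all genes tested it was -0.55. The same correlations with all 6 libraries were -0.73 and -0.48. Gene length gave 0.18 over the 27 genes and 0.28 over all genes without WT replicate 2, and 0.28 and 0.43 with all 6 libraries. These are descriptions across genes that share the same libraries, and genes are not independent replicates.

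With smooth GC and length trends removed from each library, 4 of the 27 sterol genes passed the test without WT replicate 2, against 7.04% of all genes. All 4 were lower in Ash1l+/- (4.41% of all genes), and none was higher (2.63%). Tm7sf2 kept a log2 fold change of -0.54 (adjusted p = 0.000323), Mvk had -0.27 (adjusted p = 0.0264), Acat2 -0.27 (adjusted p = 0.0154) and Insig1 -0.23 (adjusted p = 0.0312). The first 3 of these were also among the 11. Pmvk and Mvd came to -0.06 each (adjusted p = 0.655 and 0.701). Scap came to -0.13 (adjusted p = 0.259), Srebf1 to -0.07 (adjusted p = 0.665) and Dhcr7 to -0.13 (adjusted p = 0.245). Ggps1 came to 0.11 (adjusted p = 0.385), Sc5d to 0.07 (adjusted p = 0.557) and Abca1 to 0.23 (adjusted p = 0.105). After the removal, the Spearman correlation of GC with this log2 fold change was still -0.41 over the 27 genes, against 0.04 over all genes tested. What links GC content to the fold change was not tested.

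**Figure D3:**
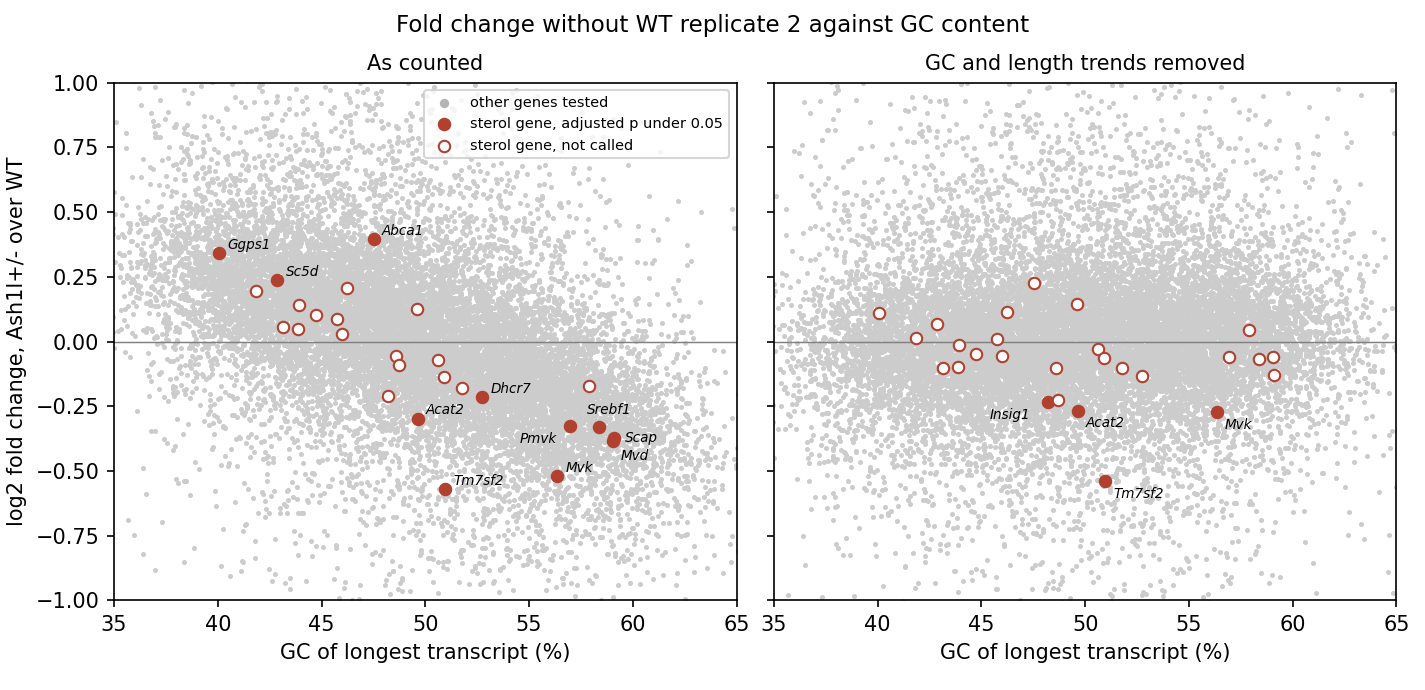
Log2 fold change, Ash1l+/- over WT replicates 1 and 3 (vertical axis), against GC content of the longest transcript in percent (horizontal axis), for the 27 sterol genes (red, filled where the adjusted p was under 0.05) and all other genes tested (grey), as counted (left) and with trends removed (right). The fold change falls with GC on the left for both, and 545 (left) and 485 (right) of 16380 genes lie outside the axes.

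Leaving out single libraries moved the count of called sterol genes. Among the 5 libraries, 3 genes (Acat2, Mvk and Tm7sf2) passed without WT replicate 1, 9 without WT replicate 3, 14 without Ash1l+/- replicate 1, 7 without Ash1l+/- replicate 2 and 6 without Ash1l+/- replicate 3. The share of all genes called was 4.67%, 15.1%, 26%, 11.4% and 13% in those same fits, so the count moved with that of the whole table. Where 1 WT library remained, it was assumed to vary like the Ash1l+/- libraries. Mvk and Tm7sf2 passed in all 16 alternatives run without WT replicate 2, Acat2 in 15, Pmvk in 14 and Scap in 13. Abca1 passed in 12, Mvd in 11, Ggps1, Sc5d and Srebf1 in 10 each, and Dhcr7 in 4. The sign of all 11 called genes was the same in all 16.

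WT replicate 2 also bears on direction. Its level was above the mean of the other WT libraries in 7 of the 8 genes that fell and below it in all 3 that rose, so for those 10 genes it lay farther from the Ash1l+/- libraries than its WT fellows did. Among the 16 sterol genes not called, it was above in 6 and below in 10. The same shares over all called genes were not computed, so the pattern may not be particular to sterol genes.

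Levels can be compared between genes only per length. Hmgcs1 led with 131 CPM per kilobase in Ash1l+/- libraries and 126 in WT replicates 1 and 3, followed by Acat2 (53.8 and 66.2), Fdft1 (55.9 and 63.3), Pmvk (36.9 and 46.4) and Sqle (38.8 and 40.3). The order of Acat2 and Fdft1, and of Pmvk and Sqle, differed between the genotypes. At the low end were Fdps (1.08 and 1.13, a level given above as uncertain), Lss (3.28 and 3.49) and Mylip (3.82 and 3.52). Within the mevalonate arm, Mvk was at 17.2 and 24.8 CPM per kilobase.

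**Figure D4:**
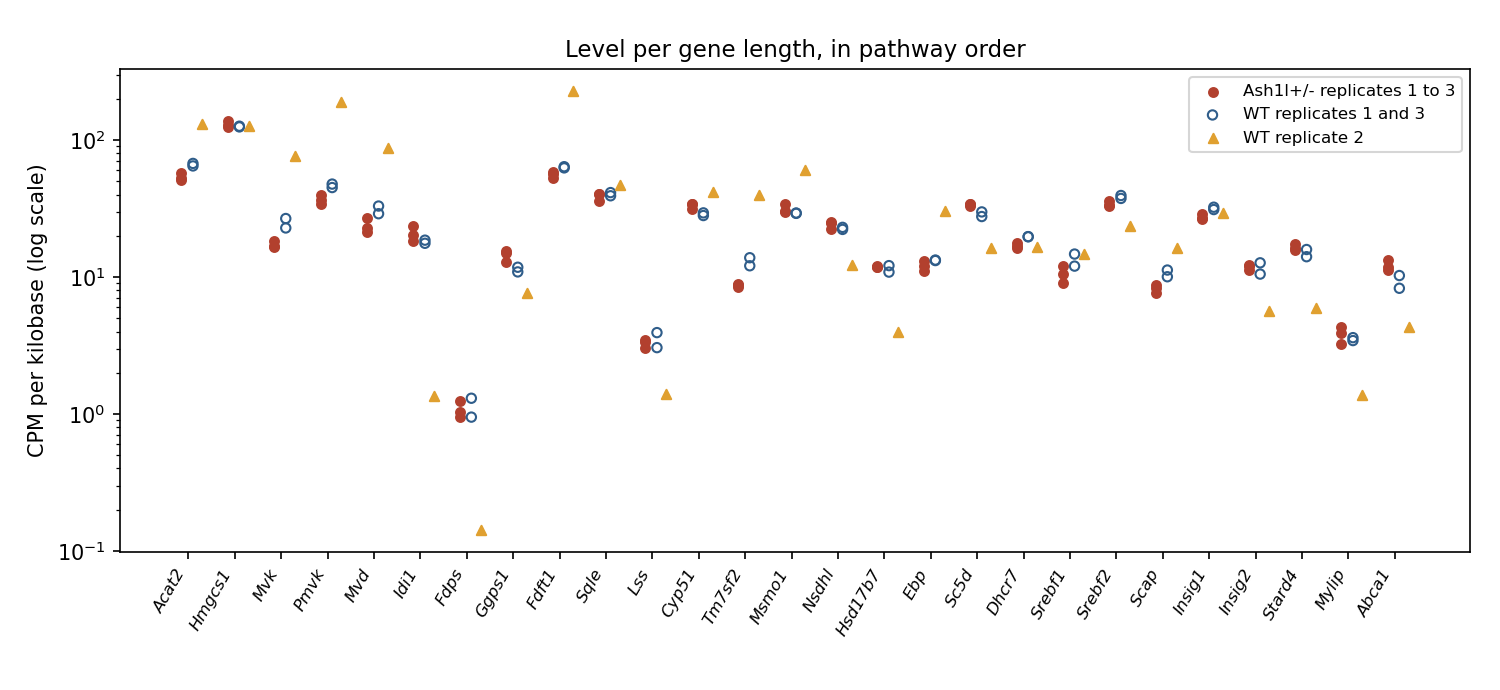
CPM per kilobase of gene length (log scale, vertical axis) of each sterol gene in pathway order, with filled circles for the 3 Ash1l+/- libraries, open circles for WT replicates 1 and 3 and triangles for WT replicate 2. Hmgcs1 is highest and Fdps lowest in Ash1l+/- libraries and in WT replicates 1 and 3.

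EdgeR called no marker of any cell type list with all 6 libraries, and the calls given here are without WT replicate 2. Summed over 10 genes, myelinating Schwann cell markers came to 4435 to 5178 CPM in Ash1l+/- libraries, against 5163 to 5359 CPM in WT replicates 1 and 3 and 7393 CPM in WT replicate 2, and the ranges overlap even without WT replicate 2. The list held calls in both directions, and Mbp, Mag and Egr2 fell. Satellite glia markers came to 1337 to 1421 CPM in Ash1l+/- libraries, against 1231 to 1283 CPM in WT replicates 1 and 3 and 1354 CPM in WT replicate 2, which lies inside the Ash1l+/- range, with 5 of 8 higher. Fibroblast markers came to 666 to 749 CPM in Ash1l+/- libraries, against 839 to 847 CPM in WT replicates 1 and 3 and 582 CPM in WT replicate 2, below the Ash1l+/- range, with 3 of 6 lower. Fewer cells of a type and less RNA per cell cannot be told apart in bulk samples, and the part of these markers in the sterol values was not tested.

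Sensory neuron markers, the check of the labelled tissue, came to 12940 to 13670 CPM in Ash1l+/- libraries, against 13350 to 13660 CPM in WT replicates 1 and 3 and 25510 CPM in WT replicate 2. Uchl1 and Prph carried the high sum of WT replicate 2, at 14230 and 4584 CPM, while the other 8 of the 10 markers were lower there than in both other WT libraries. In WT replicate 2 skeletal muscle markers reached 34.2 CPM and erythrocyte markers 522 CPM, against at most 2.96 and 85.9 CPM in the other 5 libraries. Of the 8 oligodendrocyte and spinal cord markers, Mog, Opalin, Olig1 and Olig2 were at 0 in at least 1 library. The other 4 had reads in every library. Without WT replicate 2, Mobp was lower in Ash1l+/- (log2 fold change -1.28, edgeR adjusted p = 0.000129) and Aqp4 higher (0.72, adjusted p = 0.00440). Gfap and Slc1a2 did not pass.

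Genes around the pathway, in 5 further lists of 69 genes, gave 16 calls without WT replicate 2 (23.2%, against 19.8% of all genes) and none with all 6 libraries, where edgeR's unadjusted p was under 0.05 for 4 of them and DESeq2 called 1 (Coq2, log2 fold change -0.47, adjusted p = 0.0142). In SREBP processing and sterol-regulated degradation, a list of 12, Fbxw7, a ubiquitin ligase that removes active SREBP, rose (0.23 on the log2 scale), and Syvn1, a ligase of the endoplasmic reticulum, was among the genes that fell (-0.44). In the non-sterol isoprenoid branch, 2 of 14 rose and 2 fell. Coq2, which starts ubiquinone assembly, had 59.5, 56.6 and 58.0 CPM in Ash1l+/- libraries, against 77.8, 81.4 and 79.9 CPM in WT libraries. The Coq2 groups did not overlap, WT replicate 2 lay beside the other WT libraries, and its log2 fold change came to -0.44 (SE 0.077, adjusted p = 0.000841) without WT replicate 2. Icmt, which methylates prenylated proteins, fell (-0.24). Pggt1b, a subunit of a geranylgeranyl transferase, and Zmpste24, a protease of prenylated proteins, rose (0.55 and 0.32).

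Of 14 fatty acid genes under SREBP control, 3 passed edgeR's test without WT replicate 2 and rose: Gpam, which starts glycerolipid synthesis (0.39), the desaturase Scd1 (0.24) and the elongase Elovl6 (0.21). DESeq2 also called Elovl5 there (0.20 on edgeR's log2 scale, DESeq2 adjusted p = 0.0280). In efflux, LXR and esterification, 1 of 15 changed: Nr1h2, which encodes a sterol-activated receptor known to induce Abca1, fell (-0.36), and with GC and length trends removed it came to 0.01 (adjusted p = 0.953). In uptake and trafficking, 3 of 14 rose (the lipoprotein receptors Vldlr and Lrp8, 0.37 and 0.33, and the lipid transfer protein Vps13c, 0.36) and 2 fell (the sterol transfer proteins Stard3, -0.44, and Gramd1a, -0.25). With GC and length trends removed, 5 of the 69 passed (7.25%, against 7.04% of all genes): Coq2 (-0.26), the ubiquitin ligase Rnf145 (-0.30, against 0.19 with all 6 libraries as counted) and the acetyl-CoA synthetase Acss2 (-0.31) were lower, and Gpam (0.37) and the desaturase Fads1 (0.22) higher.

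Reads from opposite strands cannot be told apart, because the library kit as named does not mark strand. Exons of 10 of the 27 genes overlap those of another annotated gene, 8 on the opposite strand and 3 on the same strand, with Srebf1 in both groups. For Ggps1 the overlap with Arid4b covers 5.44% of exonic bases, for Scap that with 5830462I19Rik covers 13.2%, and for Srebf1 that with Rai1 covers 1.93%. Scap's partner had at most 3 reads in any library, while Arid4b held 302 to 851 reads, against 485 to 1322 for Ggps1.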

How the data were processed

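RNA from dorsal root ganglia gave 6 libraries, 3 Ash1l+/- and 3 WT, grouped by title and genotype labels. The authors deposited raw read counts per gene (54532 genes) and FPKM values scaled by library size and gene length. The submitters' processing notes name HISAT2 2.0.5, featureCounts 1.5.0-p3 and GRCm38 (mm10). The annotation release and the counting settings were not given. Every column of per-sample values was used.

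Genes kept by filterByExpr were tested in R 4.3.3 by quasi-likelihood F tests in edgeR 4.0.16, with TMM factors and genotype alone in the model. Benjamini-Hochberg adjustment at 0.05 ran over all genes. Each SE is the absolute log2 fold change over the root of F. Printed CPM use the TMM factors of the 6-library comparison. CPM per kilobase uses deposited gene lengths. GC and length trends (loess, span 0.3, GC of the longest GENCODE M21 transcript, deposited length) were removed as offsets in an alternative. Other alternatives used DESeq2 1.42.0, voom in limma 3.58.1, other factors and filters, and log2 FPKM with a pseudocount of 1 or 0.1. The tests were checked on simulated counts. All pairs of libraries differed by more than sampling noise (lowest chi-square per degree of freedom 3.71). Counting error limits genes of few reads.

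The members and lists were chosen with earlier results of these data known. Values in every library are given for members that passed and for the sensing genes. Other members are given where they complete a segment, a choice made after their values were seen, and up to 4 called genes per further list. Promoter windows and motif shares came from RefSeq (GRCm38.p6), exon overlaps from GENCODE M21. Values of some genes of the further lists are not reported here.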

Additional observations from a re-analysis of the deposited data

How the results depend on the processing

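With all 6 libraries, the count of sterol genes called was 0 in 16 of 18 alternatives, was 0 to 11 when single libraries were left out (11 without WT replicate 2) and was 12 with voom quality weights, a choice made after the data were seen. With all 6 libraries and TMM factors, the median log2 fold change of the 19 enzymes was -0.14. It was 0.018 with library totals, which moved the median of all genes to 0.13, and -0.30 with GC and length trends removed. Without WT replicate 2, the count was 11, and 4 with log2(FPKM + 1), 5 with log2(FPKM + 0.1), 4 with trends removed and 3 to 14 when single libraries were left out, over which the enzyme median ran from -0.14 to -0.0070. The other alternatives gave 10 to 13. Same-numbered libraries did not deviate together (correlations 0.00052, -0.032 and 0.038), and 1 of 3 Ash1l+/- libraries correlated best with its own number. The deviations were taken from group means that include WT replicate 2, so this check cannot settle whether the numbers pair samples. With the replicate number as a block, 13 genes were called without WT replicate 2 and 0 with all libraries. Without WT replicate 2, the block raised the share of all genes called from 19.8% to 24.3%. The sign of Srebf2, never called with all 6 libraries, turned negative with quality weights (-0.19) and without Ash1l+/- replicate 1 or WT replicate 2 (range over all single libraries left out, -0.17 to 0.16). Without WT replicate 2, trends removed gave 0.043 for Srebf2 and -0.054 for Insig2, and leaving out single libraries gave -0.10 to 0.17 for Insig2. The causes were not tested. Genes of few reads (Fdps, Mylip) and the 2 WT libraries left limit what could be called.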
